A study of Nezara viridula with 24 samples.

Results

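Among 201329 Trinity genes assembled from adult southern green stink bugs (Nezara viridula), 12 had higher RNA levels on corn than on green bean in all 3 sections of the midgut. A Trinity gene is a group of assembled transcripts, its isoforms, that share an identifier. The 12 were chosen by their diet values in the midgut. In each of the sections M1, M2 and M3, the median of the 3 corn libraries had to be at least 2 times the median of the 3 green bean libraries and at least 5 CPM. CPM is the count of a gene scaled to a library total of 1000000. In M1 and M2, the lowest corn library also had to lie above the highest green bean library. The same rule with the diets exchanged found 8 genes.

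The groups were adults fed corn and adults fed green bean for 24 h after the adult moult, with salivary glands, M1, M2 and M3 dissected from each diet. Each of the 8 combinations was represented by 3 libraries, and each library pooled tissue of 4 to 10 individuals, so variation between single insects was not measured. No strain, sex or genotype is given in the labels. The labels do not say whether pools came from separate cultures, and p-values therefore measure only the spread between these pools.

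Stink bugs pierce plant tissue, liquefy it with saliva and draw the fluid into a midgut divided into sections. The anterior sac stores and concentrates the meal, and the tubular and posterior sections carry out much of the digestion and absorption. Plant-feeding insects are known to adjust the digestive enzymes, detoxification enzymes and transporters of the midgut to their host plant. The tables used here pair no identifier with a gene name or sequence, so the function of the 12 genes, and whether they belong to those classes, was not analysed here. They are called by their assembly identifiers without the prefix TRINITY_, and because CPM is not adjusted for transcript length, an order of CPM between genes is an order of counts and not of transcript abundance.

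Library totals ran from 17819164 to 33954593 counts, at which 3 counts are at most 0.168 CPM in a midgut library. The 4 corn libraries with replicate number 1 held counts for 79903 to 122664 genes, against 34833 to 59476 in the other 8 corn libraries and 64667 to 93477 in the 12 green bean libraries. The part of this difference in the results was not tested. Without corn replicate 1, the rule found 16 genes, among them all 12 described here. When each other replicate number of either diet was left out in turn, 10 or 11 of the 12 remained. In bulk tissue, fewer cells of a type and less RNA per cell cannot be told apart.

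Summed over the 12 genes, corn libraries held 6187 ± 715 CPM in M1, 10921 ± 1165 CPM in M2 and 7538 ± 1761 CPM in M3 (mean ± SD, n = 3 each). Green bean libraries held 1160 ± 237 CPM in M1, 3050 ± 126 CPM in M2 and 2594 ± 634 CPM in M3. These and the following diet values in the midgut describe what the rule selected, and counting intervals or counts of calls given with them are read as description only. The sum rests mostly on 2 genes: without the 2 with the most counts it was 2195 ± 517, 1219 ± 360 and 1118 ± 162 CPM on corn in M1, M2 and M3, against 349 ± 184, 248 ± 80.4 and 245 ± 29.2 CPM on green bean.

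DN1825_c0_g1 and DN3430_c1_g1 gave the most counts. DN1825_c0_g1 had 3465, 3548 and 2928 CPM in corn M1, against 597, 659 and 798 CPM in green bean M1. In M2 it had 4646, 3429 and 3421 CPM on corn and 496, 1058 and 944 CPM on green bean. In M3 it had 4831, 3168 and 5822 CPM on corn and 1120, 1199 and 1346 CPM on green bean. Its lowest corn library in any section lay above its highest green bean library in any section, and the ratio of corn to green bean medians was 5.26 in M1, 3.63 in M2 and 4.03 in M3.

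DN3430_c1_g1 was uneven along the gut on both diets. It had 635, 661 and 739 CPM in corn M1, against 114, 92.5 and 171 CPM in green bean M1. In M2 it reached 6418, 5730 and 5462 CPM on corn and 2299, 1798 and 1812 CPM on green bean. In M3 it had 416, 2537 and 2489 CPM on corn and 536, 1628 and 1219 CPM on green bean, so that corn replicate 1 lay below every green bean library there. The ratio of medians was 5.78 in M1, 3.16 in M2 and 2.04 in M3, the last being the ratio nearest to the limit among all genes inside the rule. Just outside it, the nearest gene had a ratio of 1.91 in M3, with medians of 216 CPM on corn and 113 CPM on green bean.

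**Figure D1:**
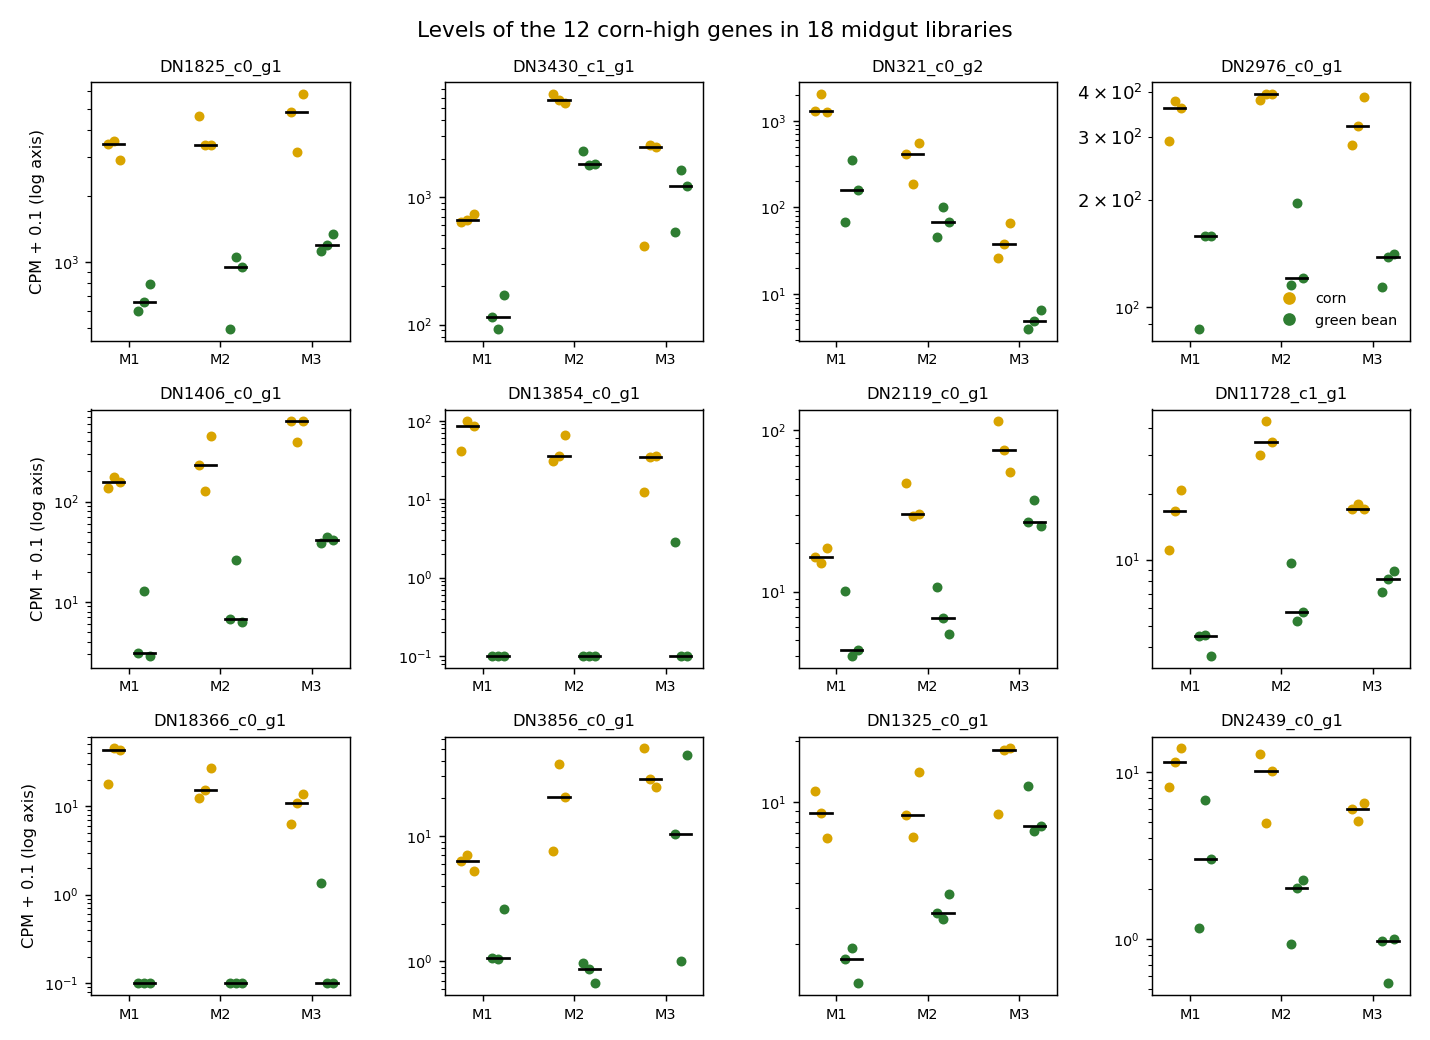
Levels of the 12 genes in the 18 midgut libraries. Each panel is a gene, points are single libraries in CPM + 0.1 on a log axis, bars are medians of 3 libraries, and corn stands left of green bean within M1, M2 and M3. DN13854_c0_g1 and DN18366_c0_g1 lie at 0 CPM in all but 1 green bean library, and corn and green bean overlap in M3 for DN3430_c1_g1, DN3856_c0_g1 and DN1325_c0_g1.

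DN1406_c0_g1 had, of the 12, the largest diet ratio that held in every section among genes with green bean medians of at least 1 CPM. It had 135, 178 and 158 CPM in corn M1, against 2.97, 12.6 and 2.78 CPM in green bean M1. In M2 it had 233, 127 and 454 CPM on corn and 6.59, 26.3 and 6.22 CPM on green bean. In M3 it had 634, 391 and 632 CPM on corn and 38.4, 43.8 and 41.4 CPM on green bean. The groups lay far apart in each section, and the ratio of medians was 53.2 in M1, 35.4 in M2 and 15.3 in M3.

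DN321_c0_g2 did not overlap between diets in any section either, with the opposite course along the gut. Corn M1 had 1289, 2029 and 1260 CPM and green bean M1 had 67.1, 353 and 157 CPM. In M2 it had 416, 188 and 548 CPM on corn and 45.3, 102 and 68.2 CPM on green bean. In M3 it had 26.1, 37.9 and 65.4 CPM on corn and 3.90, 4.83 and 6.41 CPM on green bean. Its ratio of medians moved little with the section, at 8.19 in M1, 6.11 in M2 and 7.85 in M3, while its level on corn spanned more than an order of magnitude.

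DN13854_c0_g1 and DN18366_c0_g1 were the genes measured almost only on corn. DN13854_c0_g1 had 40.5, 98.6 and 84.5 CPM in corn M1, 30.8, 35.9 and 66.2 CPM in corn M2 and 12.3, 34.2 and 35.3 CPM in corn M3. On green bean it had 0 counts in 8 of the 9 midgut libraries, and 86 counts or 2.77 CPM in M3 replicate 1. DN18366_c0_g1 had 17.7, 45.0 and 43.5 CPM in corn M1, 12.2, 15.2 and 27.1 CPM in corn M2 and 6.14, 10.9 and 13.7 CPM in corn M3. It had 39 counts or 1.26 CPM in the same green bean M3 library and 0 counts in the other 8.

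By convention set against 3 counts over the 3 green bean libraries, DN13854_c0_g1 was at least 1653-fold higher on corn in M1 and at least 1143-fold higher in M2. DN18366_c0_g1 was at least 785-fold higher in M1 and at least 469-fold higher in M2. The lower 95% exact limits of these ratios, which cover counting error only and lie below the conventional values, were 1343 and 929 for DN13854_c0_g1 and 638 and 381 for DN18366_c0_g1. In M3, where 1 green bean library had counts, the ratio of summed counts, relative to library totals, was 28.3 (95% exact interval 22.8 to 35.6) for DN13854_c0_g1 and 23.8 (17.3 to 33.7) for DN18366_c0_g1.

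The counts of these 2 genes kept a narrow ratio to each other. DN13854_c0_g1 had 1.94 to 3.13 times the counts of DN18366_c0_g1 across the 9 corn midgut libraries, and 2.21 times in the green bean M3 library that had both. Corn M1 replicates 2 and 3 held the most counts of each gene, and corn M3 replicate 1 the fewest on corn. They do not share a Trinity cluster, and whether they come from neighbouring sequences or from 1 source cannot be told from the tables.

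**Figure D2:**
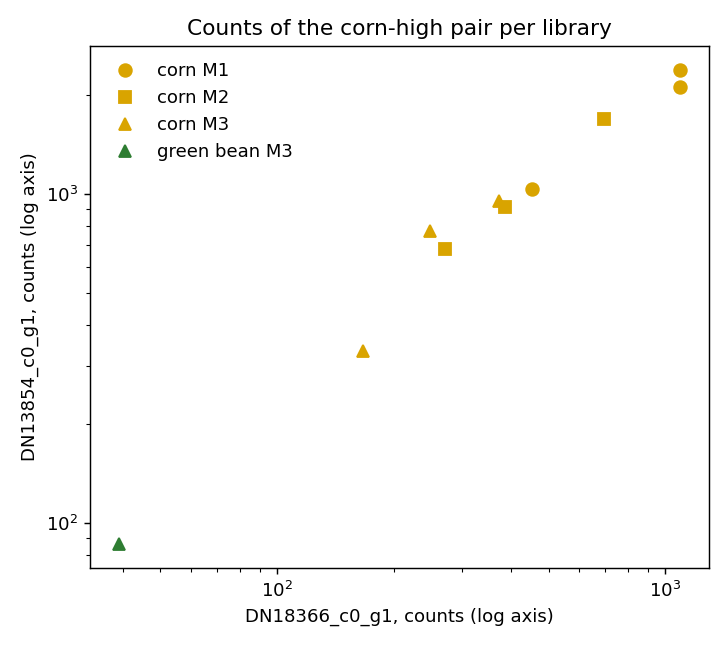
Counts of DN13854_c0_g1 (vertical, log axis) against counts of DN18366_c0_g1 (horizontal, log axis) in the 10 midgut libraries where both had counts. Symbols give the section and colours the diet; the 9 corn libraries and green bean M3 replicate 1, with 86 and 39 counts, fall in a narrow band.

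DN2976_c0_g1, DN11728_c1_g1 and DN2439_c0_g1 had no overlap between diets in any section. DN2976_c0_g1 was the flattest along the gut, at 292 to 377 CPM in M1, 380 to 394 CPM in M2 and 284 to 388 CPM in M3 on corn, against 87.1 to 158, 115 to 195 and 114 to 141 CPM on green bean. Its ratio of medians was 2.29, 3.26 and 2.31 in M1, M2 and M3. DN11728_c1_g1 had 11 to 20.7 CPM in M1, 29.9 to 42.7 CPM in M2 and 16.9 to 17.7 CPM in M3 on corn, against 3.53 to 4.42, 5.12 to 9.57 and 6.99 to 8.74 CPM on green bean. DN2439_c0_g1 had the lowest mean CPM of the 12 on corn, at 8.07 to 13.7, 4.87 to 12.8 and 5 to 6.45 CPM along the gut, against 1.07 to 6.65, 0.832 to 2.15 and 0.442 to 0.893 CPM on green bean. With a corn median of 5.92 CPM in M3, it was also the gene nearest to the limit on level, and the nearest gene outside had 4.25 CPM there.

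DN2119_c0_g1, DN3856_c0_g1 and DN1325_c0_g1 had their highest corn means in M3. DN2119_c0_g1 had 16.3, 14.9 and 18.6 CPM in M1, 47.2, 29.4 and 30.2 CPM in M2 and 114, 75.1 and 55.0 CPM in M3 on corn. On green bean it had 9.93, 3.89 and 4.25 CPM in M1, 10.6, 6.75 and 5.35 CPM in M2 and 26.9, 37.1 and 25.5 CPM in M3. The diets did not overlap in any section, and the ratio of medians was 3.85, 4.48 and 2.79 in M1, M2 and M3.

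DN3856_c0_g1 varied widely between replicates in several groups. It had 6.19, 7 and 5.18 CPM in M1, 7.50, 37.8 and 20.5 CPM in M2 and 50, 28.6 and 24.7 CPM in M3 on corn. On green bean it had 0.954, 0.95 and 2.53 CPM in M1, 0.867, 0.772 and 0.570 CPM in M2 and 10.3, 0.913 and 44.1 CPM in M3. The green bean M3 libraries alone spanned almost the whole range of the gene, and the ratio of medians ran from 2.77 in M3 to 26.6 in M2. DN1325_c0_g1 had 6.53 to 11.2 CPM in M1, 6.64 to 13.9 CPM in M2 and 8.59 to 18.3 CPM in M3 on corn, against 1.18 to 1.80, 2.56 to 3.42 and 7.10 to 12 CPM on green bean, and the diets overlapped in M3.

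**Figure D3:**
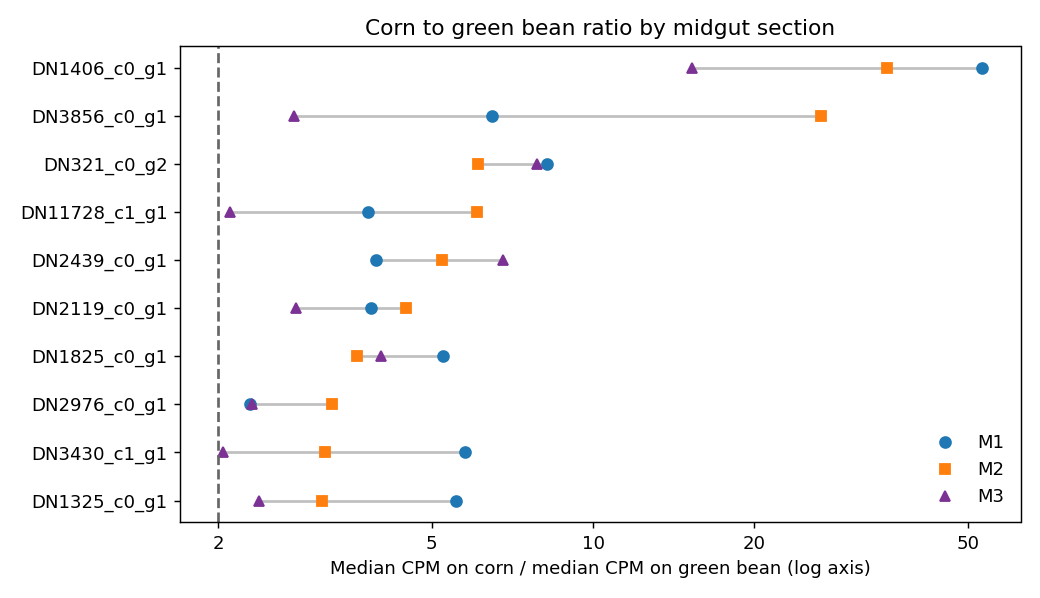
Ratio of the corn median to the green bean median (log axis) in M1, M2 and M3 for the 10 genes whose green bean medians were above 0; the dashed line marks the limit of 2 in the rule. DN1406_c0_g1 lies farthest right, at 15.3 to 53.2, and DN3430_c1_g1 comes nearest to the limit, at 2.04 in M3.

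In M3, where the rule asked for no separation of single libraries, corn and green bean did not overlap for 9 of the 12 genes, while 11.6% of the 23008 genes tested in the midgut were higher on corn without overlap. In M1 and M2 the rule fixed the separation of all 12, against 2.83% and 6.09% of tested genes. The quasi-likelihood test of edgeR, run across all genes with Benjamini-Hochberg adjustment, called 1 of the 12 higher on corn in M1 and 6 in M2, against 0.013% and 0.339% of tested genes. In M3 it called 0 of the 12, and it called 0% of tested genes, with 1815 of them at an unadjusted p under 0.05, 9 of these among the 12, while DESeq2 called 891 genes, 187 of them higher, and 6 of the 12. Since the rule used these contrasts, nothing is read from these counts.

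A further 43 genes failed the rule by 1 criterion alone. Of these, 16 lacked the ratio in M3, 10 and 2 overlapped between diets in M1 and M2, 7 and 6 were too low in M1 and M3, and 2 lacked the ratio in M1.

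Most of the 12 were assembled with few isoforms. They had 1 to 9 isoforms with a median of 2, against a median of 3 in the 5989 genes whose mean CPM in corn midgut was at or above that of the lowest of the 12, and 41.7% of them had a single isoform, against 23.6% of those genes. In 11 of the 12 the isoform with the largest share of counts was the same on corn and on green bean, as in DN1825_c0_g1, whose isoform i2 held 91.7% on corn and 96.5% on green bean. DN1406_c0_g1 was the exception, with counts spread over 9 isoforms. Its isoform i5 held 34.5% on corn and 21.5% on green bean, and isoform i1 held 6.27% on corn and 36.5% on green bean. Isoforms share reads, so their division is uncertain, and the shift between isoforms was not tested. No 2 of the 12 shared a Trinity cluster. DN321_c0_g1, in the same component as DN321_c0_g2, was flat, with medians of 0.943 to 1.11 CPM on corn and 0.901 to 1.25 CPM on green bean across the sections. DN2119_c1_g1, in the same cluster as DN2119_c0_g1, was lower on corn in M1, at 1.23 CPM on corn and 5.57 CPM on green bean, and in M2, at 0.783 and 5.52 CPM, but not in M3, at 2.57 and 2.45 CPM (medians). In the cluster of DN1325_c0_g1, DN1325_c1_g2 had medians of 11277 CPM on corn and 5020 CPM on green bean in M1. In M2 it had 479 and 2412 CPM, and in M3 130 and 49.2 CPM. These relatives are named after their values were seen.

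The salivary glands gave a diet comparison on which the rule had not drawn. Filtering on low counts left 7 of the 12 genes among the 12741 tested in glands, and 0 of the 7 were called by edgeR's quasi-likelihood test at an adjusted p under 0.05, against 0.118% of tested genes. None of the 7 had an unadjusted p under 0.05, against 1301 of all genes tested, and DESeq2 also called 0. Of the 7, 3 had a positive log2 fold change of corn over green bean, and their median was -1.56, against 0.02 over all genes tested. Those figures leave out the 5 genes too low to test.

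DN2119_c0_g1 had 38.5, 44.9 and 46.1 CPM in glands on corn and 26.0, 27.8 and 8.96 CPM on green bean. The groups did not overlap, as was so with corn higher for 1 of the 7 tested genes and 13.7% of all genes tested. Its log2 fold change was 0.99 (SE 0.42) with an adjusted p of 0.490 by edgeR's quasi-likelihood test, and with no filter on low counts the adjusted p was 0.0116.

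DN1825_c0_g1, whose midgut level was higher on corn in every section, had 6.56, 11.5 and 25.8 CPM in glands on corn and 90.7, 1.93 and 90.2 CPM on green bean. Green bean replicates 1 and 3 lay above all corn libraries and replicate 2 below them. The log2 fold change was -2.07 (SE 1.21, adjusted p = 0.637 by edgeR). In DN2976_c0_g1, green bean replicates 1 and 3 again lay above all corn libraries and replicate 2 lay within the corn range, with 0.290, 1.25 and 3.12 CPM on corn and 14.6, 0.429 and 22.3 CPM on green bean (log2 fold change -3.00, SE 1.33, adjusted p = 0.521 by edgeR).

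A set of 1288 other genes with far higher levels in midgut than in glands on corn moved with these values. It was chosen after the data were seen, as genes with a log2 fold change of glands over midgut below -5. Summed, it came to 840, 1125 and 1286 CPM in corn glands and to 5593, 778 and 4534 CPM in green bean glands, against 212508 to 337593 CPM in corn midgut. The 2 green bean gland libraries with high DN1825_c0_g1 were the 2 with high sums. In DN321_c0_g2, DN1406_c0_g1 and DN3430_c1_g1, green bean replicate 1 did not lie above all corn libraries, at 1.27, 0.358 and 3.02 CPM. The part of midgut RNA in the gland values was not tested.

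In the other 4 tested genes the diets overlapped in glands. DN3430_c1_g1 had 4.92 to 7.37 CPM on corn and 2.15 to 6.70 CPM on green bean, and DN11728_c1_g1 had 10.1 to 20.2 CPM on corn and 7.83 to 13.0 CPM on green bean. DN321_c0_g2 had 1.25 to 2.81 CPM on corn and 0.0859 to 19.6 CPM on green bean, and DN1406_c0_g1 had 0.579 to 1.16 CPM on corn and 0.172 to 7.54 CPM on green bean, each with its highest green bean value in replicate 3. The 5 untested genes stayed under 1 CPM in every gland library. DN13854_c0_g1 had 1, 9 and 4 counts in corn glands and 0 in all 3 green bean libraries, and DN2439_c0_g1 had 5, 12 and 8 counts on corn and 2, 2 and 4 on green bean. In both, corn lay above green bean without overlap, which for DN13854_c0_g1 rests on 1 count in corn replicate 1 against 0. The share of such genes below the filter was not computed, so nothing is read from it.

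**Figure D4:**
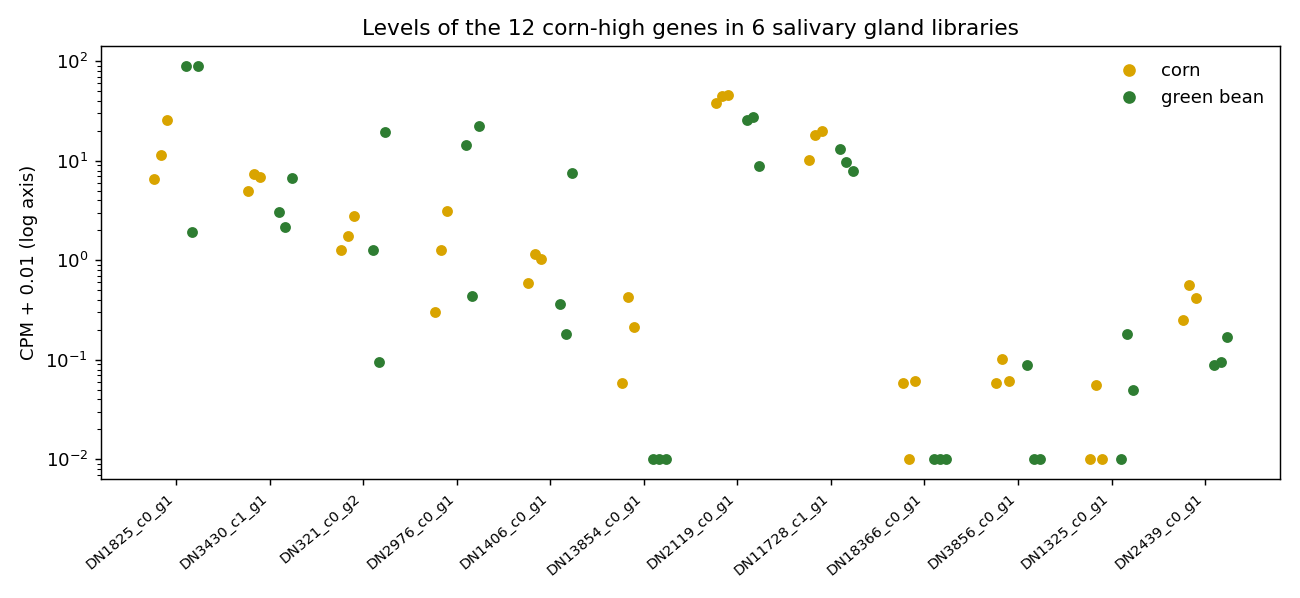
Levels of the 12 genes in the 6 salivary gland libraries, as CPM + 0.01 on a log axis; each point is a library, with corn left of green bean. DN1825_c0_g1 and DN2976_c0_g1 each have 2 green bean libraries above all corn libraries, the remaining one lying below them in DN1825_c0_g1 and among them in DN2976_c0_g1. DN2119_c0_g1 shows no overlap, nor, at low counts, do the untested DN13854_c0_g1 and DN2439_c0_g1, with corn higher in each.

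Within corn-fed insects, 10 of the 12 genes were lower in salivary glands than in the midgut, 1 was higher and 1 did not pass the test. The rule favours genes of the midgut, since it set a minimum level in every section and none in glands. Among all 17815 genes tested on corn, 21.4% were called lower and 17.2% higher in glands by edgeR's quasi-likelihood test with Benjamini-Hochberg adjustment. Among the 5706 tested genes with the same minimum level in corn midgut, 31.2% were called lower and 12.9% higher. The median log2 fold change of the 12 was -7.23, against -0.14 over all genes tested. Values for glands in this comparison come from the table of corn libraries, whose counts differ slightly from those of the gland table.

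DN1406_c0_g1 had 1.00 ± 0.285 CPM in corn glands and 336 ± 202 CPM in corn midgut (SD, n = 3 and 9), with a log2 fold change of -7.66 (SE 0.76, adjusted p = 4.27e-06 by edgeR). DN3430_c1_g1 had 6.42 ± 1.31 CPM in glands and 2799 ± 2464 CPM in midgut, with a log2 fold change of -7.65 (SE 0.84, adjusted p = 1.07e-05 by edgeR). For both genes every gland library lay below every midgut library, as for all 10 called lower and for 22.4% of tested genes. Of the other 8, DN1825_c0_g1, DN321_c0_g2, DN2976_c0_g1, DN13854_c0_g1 and DN3856_c0_g1 had log2 fold changes from -7.41 to -6.68, and DN2439_c0_g1 had -3.77. DN18366_c0_g1 had 2 counts over the 3 gland libraries, with a midgut to gland ratio of 693 (95% exact interval 192 to 5726). DN1325_c0_g1 had 1 count, with a ratio of 719 (129 to 28418).

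DN2119_c0_g1 and DN11728_c1_g1 were the 2 genes not lower in glands. DN2119_c0_g1 had 40.4, 47.1 and 48.3 CPM in corn glands and 14.5 to 111 CPM in corn midgut, so the gland libraries lay inside the midgut range. It was called higher in glands, with a log2 fold change of 1.00 (SE 0.24, adjusted p = 0.00493 by edgeR), but library totals in place of TMM factors, the edgeR scaling used here, gave 0.35 (adjusted p = 0.264) and no filter on low counts gave 0.76 (adjusted p = 0.225). DN11728_c1_g1 had 10.0 to 19.9 CPM in glands and 11.1 to 43.0 CPM in midgut. Its log2 fold change was 0.17 (SE 0.40, adjusted p = 0.788 by edgeR), and -0.44 with library totals. TMM raised log2 fold changes of this contrast by 0.60 relative to library totals.

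Along the midgut the 12 genes ran in different directions on corn. The rule set no order among sections, but it required a minimum level on corn in each. It also kept every green bean library of M1 and M2 below the lowest corn library, and asked this of no M3 library. Mean levels were highest in M1 for DN321_c0_g2, DN13854_c0_g1, DN18366_c0_g1 and DN2439_c0_g1, in M2 for DN3430_c1_g1, DN2976_c0_g1 and DN11728_c1_g1, and in M3 for DN1825_c0_g1, DN1406_c0_g1, DN2119_c0_g1, DN3856_c0_g1 and DN1325_c0_g1. On green bean the highest section was the same for 9 of the 10 genes with counts in every section, the exception being DN11728_c1_g1, which was highest in M3. These orders, and their match between diets, are of CPM from library totals. With TMM scaling, the log2 fold changes on corn of DN1825_c0_g1 (M3 against M1 -0.26), DN2976_c0_g1 (M2 against M1 -0.08) and DN3856_c0_g1 (M3 against M2 -0.10) went against that order. None of the 3 passed the test under either scaling. With TMM the match between diets was lost for DN1825_c0_g1, with M3 against M1 at 0.75 on green bean, and for DN3856_c0_g1. DN321_c0_g2 fell to 2.83% of its M1 level in M3 on corn and to 2.62% on green bean. DN2976_c0_g1 stayed within 85.0% to 100% of its highest section on corn and 91.2% to 100% on green bean. Whether section patterns differed between diets was not tested.

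**Figure D5:**
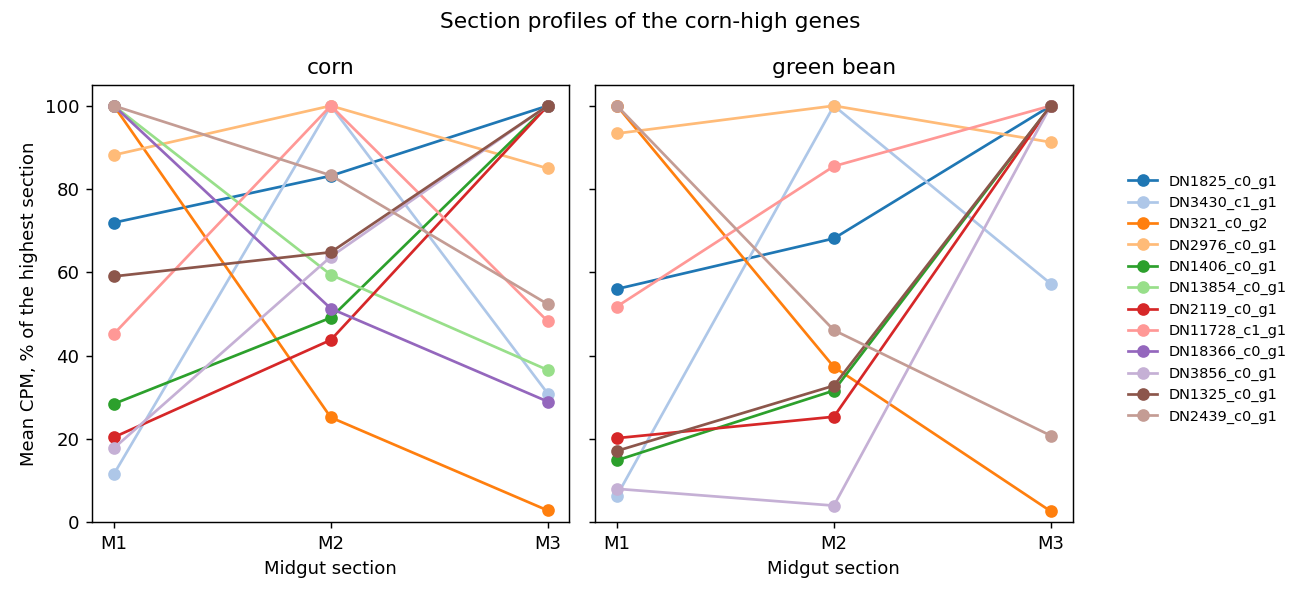
Mean CPM of 3 libraries in M1, M2 and M3 as a percentage of the highest section of each gene, on corn at left and green bean at right; lines are genes, and DN13854_c0_g1 and DN18366_c0_g1 are left out on green bean. DN321_c0_g2 declines to below 3% in M3 on both diets, and DN3430_c1_g1 peaks in M2 on both.

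In M2 against M1 on corn, 1 of the 12 genes was called higher and 0 lower by edgeR's quasi-likelihood test, against 2.48% and 2.93% of tested genes. DN3430_c1_g1 had 5870 ± 493 CPM in M2 and 678 ± 54.1 CPM in M1 (SD, n = 3 each), a log2 fold change of 2.86 (SE 0.63, adjusted p = 0.0154 by edgeR). The call was lost without corn M1 replicate 1 (adjusted p = 0.0792) or replicate 3 (0.0575) and with no filter on low counts (0.223), and without corn M2 replicate 3 DN321_c0_g2 was called as well (-3.03, adjusted p = 0.0463). With the replicate number as a block, 3 of the 12 and 2057 of all tested genes were called, against 1244 of all without it, adding DN321_c0_g2 at -2.35 (adjusted p = 0.0229) and DN11728_c1_g1 at 0.94 (adjusted p = 0.0306). Libraries of M2 lay above those of M1 without overlap for 5 of the 12 and below them for 1, against 13.5% and 4.97% of tested genes.

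In M3 against M2 on corn, DN321_c0_g2 alone was called, and it fell, against 1.67% of tested genes lower and 0.917% higher. It had 43.1 ± 20.2 CPM in M3 and 384 ± 182 CPM in M2, a log2 fold change of -3.61 (SE 0.73, adjusted p = 0.0152 by edgeR). The adjusted p was 0.0789 without corn M3 replicate 1, 0.0839 without M3 replicate 2 0.0566 without M2 replicate 3 and 0.134 with no filter on low counts. With the replicate block, 3 of the 12 and 858 of all tested genes were called lower, against 385 of all without it, adding DN3430_c1_g1 at -2.45 (adjusted p = 0.0163) and DN11728_c1_g1 at -1.51 (adjusted p = 0.00416). Without corn M2 replicate 1 the test without the block called 2 genes, adding DN11728_c1_g1 (adjusted p = 0.0256). Without corn replicate 1 in every tissue, DN3430_c1_g1 (adjusted p = 0.0365) and DN11728_c1_g1 (0.0133) were called lower and DN321_c0_g2 was not (0.0517). M3 lay above M2 without overlap for 1 of the 12 and below it for 3, against 14.1% and 4.06% of tested genes.

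Over the whole length, in M3 against M1 on corn, 1 of the 12 was called higher and 1 lower by edgeR, against 6.22% and 6.33% of tested genes. DN321_c0_g2 fell by 5.87 on the log2 scale (SE 0.81, adjusted p = 0.000248), with 43.1 ± 20.2 CPM in M3 and 1526 ± 436 CPM in M1. DN2119_c0_g1 rose by 1.46 (SE 0.38, adjusted p = 0.0198), with 81.3 ± 29.9 CPM in M3 and 16.6 ± 1.84 CPM in M1. The call of DN2119_c0_g1 was lost without corn M3 replicate 1 (adjusted p = 0.0584) or corn M1 replicate 1 (0.0747), when DN2439_c0_g1 was called lower (-2.11, adjusted p = 0.0467), and without corn replicate 1 in every tissue (0.150). DN13854_c0_g1 had 27.3 ± 12.9 CPM in M3 and 74.6 ± 30.3 CPM in M1, and DN18366_c0_g1 had 10.3 ± 3.83 CPM in M3 and 35.4 ± 15.4 CPM in M1. Neither passed the test (adjusted p = 0.438 and 0.303 by edgeR), although M3 and M1 did not overlap for either. With only the 2 groups in the fit, DN18366_c0_g1 (adjusted p = 0.0404) and DN2439_c0_g1 (0.0486) were called lower and DN3856_c0_g1 (0.0327) higher. Without overlap, M3 lay above M1 for 3 of the 12 and below it for 4, against 28.6% and 6.42% of tested genes. Overlap was judged on CPM of library totals, whereas calls used TMM, so the 2 kinds of share are not on the same scaling. TMM lowered log2 fold changes of this contrast by 0.72 relative to library totals, and the signs of DN1825_c0_g1 and DN11728_c1_g1, not called, turned between the scalings.

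In M3 against M1 on green bean, 5 of the 12 were called higher and 2 lower, against 5.55% and 6% of tested genes. The rule limited single green bean libraries in M1 but not in M3. It thus favoured genes higher in M3 on green bean, and this contrast is not independent of it. DN3430_c1_g1 had 1128 ± 552 CPM in M3 and 126 ± 40.4 CPM in M1 (log2 fold change 3.01, SE 0.64, adjusted p = 0.00622 by edgeR). DN1406_c0_g1 had 41.2 ± 2.72 CPM in M3 and 6.13 ± 5.63 CPM in M1 (2.65, SE 0.77, adjusted p = 0.0373). DN2119_c0_g1, DN1325_c0_g1 and DN3856_c0_g1 also rose, by 2.19, 2.51 and 3.51 on the log2 scale. DN321_c0_g2 had 5.05 ± 1.27 CPM in M3 and 192 ± 146 CPM in M1 (-5.36, SE 0.79, adjusted p = 0.000459), and DN2439_c0_g1 fell by 2.31. M3 lay above M1 without overlap for 6 of the 12 and below it for 2, against 17.1% and 14.3% of tested genes.

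Of these 7, DN3430_c1_g1, DN2119_c0_g1, DN1325_c0_g1 and DN321_c0_g2 passed the test whichever green bean M1 or M3 library was left out. The call of DN1406_c0_g1 was lost without any single one of them except M1 replicate 2, with adjusted p from 0.0672 to 0.143. That of DN3856_c0_g1 was lost without M3 replicate 3 (0.227) or any M1 library (0.0638 to 0.138). That of DN2439_c0_g1 was lost without M3 replicate 2 (0.129), M3 replicate 3 (0.0871) or M1 replicate 2 (0.197). With no filter on low counts, DN3430_c1_g1 (adjusted p = 0.0684), DN1406_c0_g1 (0.187) and DN3856_c0_g1 (0.222) were not called. With only the 2 groups in the fit, DN1406_c0_g1 (0.0727), DN3856_c0_g1 (0.182) and DN2439_c0_g1 (0.148) were not called. With the replicate block, which called 3831 genes in all against 2659 without it, DN3856_c0_g1 (adjusted p = 0.0616) and DN2439_c0_g1 (0.0574) were not called, DN11728_c1_g1 was (log2 fold change 0.85, adjusted p = 0.0350), and DN13854_c0_g1 and DN18366_c0_g1 were called from counts in 1 M3 library (adjusted p = 0.00672 and 0.0115).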

How the data were processed

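RNA was sequenced in 24 libraries. The tools named in the submitters' processing notes are Salmon 0.12, DESeq2 1.20.0 and Trim Galore 0.4.4, whose roles those notes, as used here, leave unstated. The deposited tables hold estimated counts per transcript, already whole numbers, for 298322 transcripts in 3 tables (12 corn, 6 gland and 18 midgut libraries). Tests stayed within 1 table, because the same library differs slightly between tables. No library was left out of the main fits.

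Isoforms were summed to Trinity genes, and levels are CPM of column totals. Overlap of libraries was judged on these CPM throughout, without TMM. Tests used R 4.3.3 and edgeR 4.0.16 (filterByExpr, TMM scaling, glmQLFit with robust estimation, glmQLFTest, two-sided, Benjamini-Hochberg over all genes kept, called at an adjusted p under 0.05), with 1 mean per tissue and diet. Filtering kept 12741 genes in the gland table, 17815 in the corn table and 23008 in the midgut table, holding 99.5%, 99.5% and 99.4% of counts. Such fits were run on simulated counts of independent libraries, without the correlation of same-numbered libraries described below, so nothing is read from that run. DESeq2 1.42.0, other scalings, no filter, a replicate block and leaving out libraries were tried, and library totals without TMM were added after seeing the data. Exact binomial intervals and the limit of 3 counts cover counting error only.

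Replicates of a group differed by at least 54.2 times the expected counting noise in a chi-square comparison of their counts, so none appeared to be deposited in duplicate. Same-numbered libraries were compared by the correlation of their deviations from group means. Every pair was over 0.1 for M1 with M2 on corn (0.11 to 0.689) and M2 with M3 on corn (0.255 to 0.594). The same held for M1 with M3 on green bean (0.557 to 0.850) and glands with midgut on corn (0.173 to 0.656), but not across diets or for M1 with M3 on corn. Corn M1 replicates 1 and 3 were closest to M2 replicates 1 (0.689) and 3 (0.240). Corn M1 replicate 2 was closer to M2 replicate 3 (0.660) than to M2 replicate 2 (0.110), so the numbers are not shown to pair libraries. The main fits had no block, and their SEs and p-values take no account of pairing. The replicate block was an alternative fit only.

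The members and lists were chosen with earlier results of these data known. The rule for named genes took the 2 genes with most corn midgut counts, the 2 others with the largest smallest-section ratio, and per tissue contrast up to 2 rises and 2 falls with a log2 change of at least 1, no overlap and at least 10 CPM; in glands, the 2 with the highest level. The other genes of the 12 are named to account for all, after their values were seen.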

Additional observations from a re-analysis of the deposited data

How the results depend on the processing

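The count of genes meeting the rule was 12 with column totals, 19 with TMM-scaled libraries (11 shared, DN2439_c0_g1 lost), 23 and 6 with a ratio of at least 1.5 and 3, 20 with a minimum of 2 CPM, and 11 to 20 without 1 replicate (10 to 12 shared).

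For the tests, the count of the 12 called is given. Glands against midgut on corn gave 11, and 10 with library totals or no filter, where DN2119_c0_g1 was lost (11 throughout when leaving out libraries). Diet in glands gave 0, and 1 with no filter (0 throughout). M2 against M1 on corn gave 1 in the main test, 3 with library totals, 0 with no filter and 2 with DESeq2 (0 to 2 leaving out libraries). M3 against M2 on corn gave 1, then 2, 0 and 3 in the same order (0 to 2). M3 against M1 gave 2 on corn and 5 with only the 2 groups fitted (1 to 2), and 7 on green bean (4 to 8). Diet in M1 gave 1, then 4 with DESeq2 size factors, 4 with library totals, 8 with no filter, 12 with DESeq2 and 0 with only the 2 groups (0 to 11), while all genes called numbered 5, then 23, 12, 2671, 1341 and 0. Diet in M2 gave 6 and 12 with DESeq2 (0 to 12; all genes 115 and 3194), and diet in M3 gave 0, 5 with no filter and 6 with DESeq2 (0 throughout; all genes 0, 8071 and 891). The cause of these moves was not tested.

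The replicate block gave 3 calls in M2 against M1 and 3 in M3 against M2 on corn, where every same-numbered pair correlated over 0.1. It gave 5 in M3 against M1 on corn, where same-numbered correlations were 0.590, -0.00569 and 0.360 for replicates 1, 2 and 3. For diet in M1 it gave 5, and there libraries share only a number (correlations -0.186 to -0.0391). In M3 against M1 on corn the block called 4170 of all genes, against 2886 without it, and added DN13854_c0_g1 (adjusted p = 0.00387), DN18366_c0_g1 (0.00232) and DN2976_c0_g1 (0.0430), each lower. Leaving out corn replicates 2 and 3 left no residual degrees of freedom for glands against midgut, so that fit was not run.

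With 3 pools a group the tests had few degrees of freedom, and depth limited the values of genes near 0 counts in glands or on green bean. Outside the diet contrasts in the midgut, where directions were not compared, no gene called in the main tests changed direction under any alternative tried.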
